A study of Danio rerio with 6 samples.

Results

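Amino acids and small peptides enter and leave liver cells through carrier proteins of the solute carrier (SLC) families. The genes described here are those whose names in the deposited tables start with *slc1a*, *slc3a*, *slc6a*, *slc7a*, *slc15a*, *slc36a*, *slc38a* or *slc43a* followed by a digit. The rule took 86 of the 25281 listed genes, and it used names only, not measured values. The label fits most of them, with a few exceptions that share a name but not the role. The *slc43a3* carriers move purine nucleobases in mammals, *slc7a6os* is a neighbour of *slc7a6* on the opposite strand and encodes no transporter, and several *slc6a* genes carry transmitters, taurine or creatine.

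RNA-sequencing was done on livers dissected from *Tg*(*fabp10a:pt-Beta-catenin*) zebrafish larvae and pooled, with 3 libraries from larvae treated with GW7647, a PPARα agonist, and 3 from larvae treated with DMSO, the vehicle. GW7647 was given at 1 μM for 2 days, from 13 to 15 dpf, and DMSO was given over the same days. Larvae of both groups carried the transgene, in which the hepatocyte-specific *fabp10a* promoter drives a stable form of Xenopus β-catenin, so that hepatocytes are damaged and liver progenitor cells are activated in controls too, and no larva without the transgene entered the comparison. All larvae went without food during the treatment. The question was how these livers differ in gene expression when PPARα is activated. Nothing in the labels says what libraries with the same replicate number share.

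The carriers work in a few distinct ways. Sodium-coupled carriers of the *slc1*, *slc6* and *slc38* families can concentrate amino acids inside the cell, and in mammals hepatocytes use *slc38* carriers to take up alanine and glutamine for gluconeogenesis and nitrogen disposal. Most *slc7* carriers are light chains that reach the plasma membrane only when bound to a heavy chain, *slc3a1* or *slc3a2*, and exchange one amino acid for another, whereas the cationic amino acid carriers of *slc7* (*slc7a1*, *slc7a2* and *slc7a3*) work alone. Peptide carriers (*slc15*), the *slc36* carriers and facilitative carriers (*slc43*) complete the set, and some members act at the lysosome, where they report amino acid supply to the kinase complex mTORC1.

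Exon reads numbered 20387153 to 25224356 per library in GW7647 livers and 19961881 to 22332909 in DMSO livers, and 96.3 to 96.8% of them mapped to 1 place only. Levels are given as CPM, the exon reads of a gene scaled by library size and TMM factor, in which 3 reads, taken as the limit of detection, are worth 0.127 to 0.163 CPM. Levels of different genes are compared by TPM, which the authors' software divided by exon length. Shares of reads and differences in mean CPM, where given, are not corrected for length. The 86 genes took 0.562 to 0.642% of the exon reads in GW7647 libraries and 0.448 to 0.595% in DMSO libraries. No pair of the 15 possible pairs of libraries held identical counts.

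Of the 86 genes, 52 had enough reads to be tested and 34 did not. The tested ones were 3 of 12 *slc1a* genes, 3 of 3 *slc3a*, 13 of 27 *slc6a*, 13 of 18 *slc7a*, 3 of 5 *slc15a*, 2 of 2 *slc36a*, 11 of 13 *slc38a* and 4 of 6 *slc43a*. The 34 untested genes had at most 19 reads in any library, 19 of them had 3 reads or fewer in every library, and 6 had 0 reads in all of them (*SLC15A5*, *slc1a7a*, *slc1a7b*, *slc1a8a*, *slc6a1b* and *slc6a3*). For those 6 genes the depth allows a level of up to 0.127 to 0.163 CPM per library. The untested genes include the serotonin carrier *slc6a4b*, the dopamine carrier *slc6a3*, the GABA carriers *slc6a1a*, *slc6a1b*, *slc6a11a* and *slc6a11b*, and 9 of the 10 glutamate and aspartate carriers of *slc1*. Among the 52 tested genes, 46 passed the filter on low counts in every library, and the other 6 (*slc15a1b*, *slc38a8b*, *slc7a11*, *slc6a19b*, *slc6a15* and *slc7a5*) were below it in at least 1 library.

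A few carriers held most of the transcripts. By TPM, 4 genes had a mean over the 6 libraries above 100, namely *slc43a3b*, *slc38a4*, *slc43a2b* and *slc7a3a*, and together they made up 64.3 to 68.8% of the summed TPM of the 86 genes in GW7647 libraries and 61.6 to 69.0% in DMSO libraries. In all, 24 genes had a mean above 10 TPM and 46 above 1 TPM. In GW7647 livers *slc38a4*, a sodium-coupled carrier of neutral amino acids that is abundant in mammalian liver, came first at 657 ± 150 TPM (SD, n = 3, as for all means below), ahead of *slc43a3b* at 540 ± 74.8 TPM, *slc7a3a* at 278 ± 61.4 TPM and *slc43a2b* at 197 ± 78.0 TPM. In DMSO livers the order was *slc43a3b* at 683 ± 175 TPM, *slc43a2b* at 353 ± 173 TPM, *slc38a4* at 292 ± 85.2 TPM and *slc7a3a* at 179 ± 14.8 TPM. The ranges of *slc38a4* and *slc43a3b* overlapped in GW7647 livers, so their order there is not beyond the spread between libraries, and the same holds for *slc7a3a* and *slc43a2b* in GW7647 livers and for *slc43a2b* and *slc38a4* in DMSO livers. *slc38a4* alone took 24.6 to 35.1% of the reads on the 86 genes in GW7647 libraries and 12.1 to 18.8% in DMSO libraries, without overlap.

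**Figure D1:**
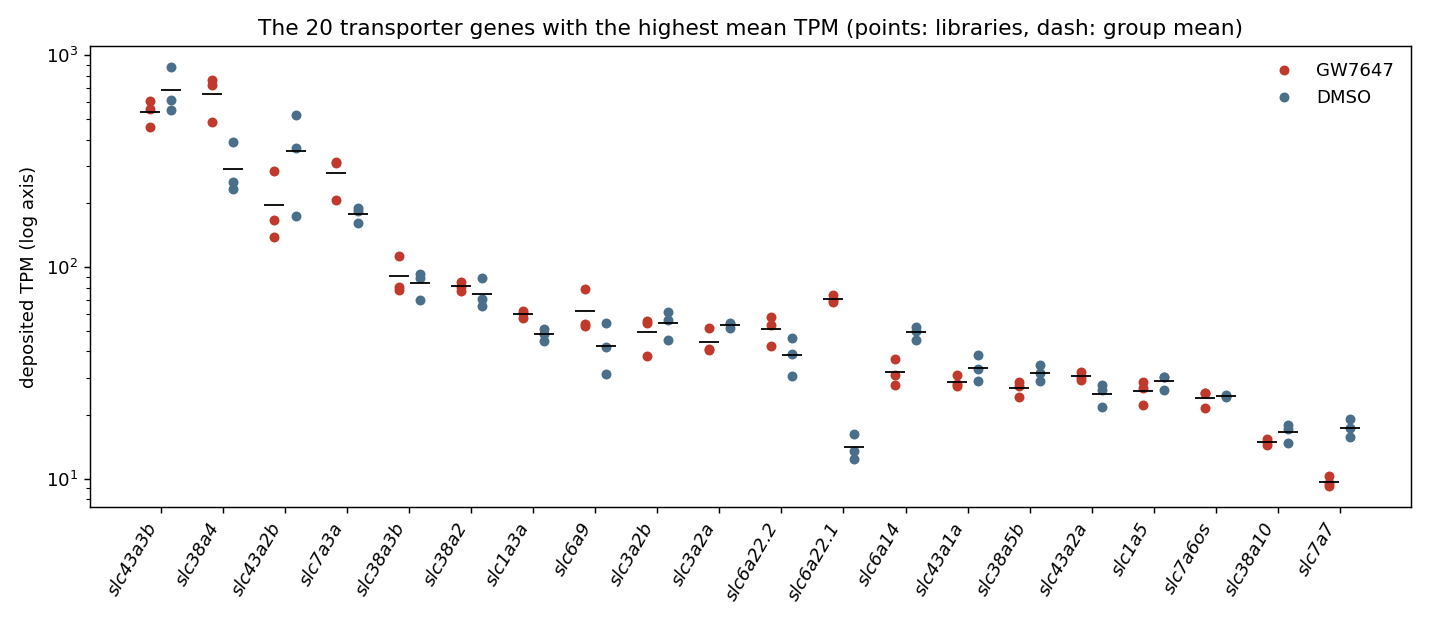
TPM, on a log axis, of the 20 genes with the highest mean TPM among the 86 transporter genes, ordered by that mean. Points are the 3 GW7647 libraries (left of each pair) and the 3 DMSO libraries (right), and dashes are group means. *slc38a4*, *slc7a3a*, *slc1a3a*, *slc6a22.1* and *slc43a2a* have all GW7647 points above all DMSO points. *slc6a14*, *slc7a7* and, by narrow gaps, *slc3a2a* and *slc38a5b* have all of them below.

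With edgeR's quasi-likelihood test, a gene was called a differentially expressed gene (DEG) at a fold change of at least 1.5 and a Benjamini-Hochberg adjusted p of at most 0.05 over the 15705 genes tested. By this rule 8 of the 52 tested transporter genes were DEGs, or 15.4%, against 6.02% of all genes tested. GW7647 livers had 6 DEGs that were higher (3.39% of all genes tested were) and 2 that were lower (2.62% of all genes tested were). The 6 that rose were *slc6a22.1*, *SLC6A13*, *slc38a4*, *slc7a3a*, *slc7a2* and *slc6a22.2*, and the 2 that fell were *slc7a7* and *slc7a5*. Of these, *slc7a5* passed the filter on low counts in 3 DMSO libraries but 1 GW7647 library, so counting it is no separate support for a fall. In all, 12 of the 52 passed the adjusted p whatever their fold change (9.06% of all genes tested did). The 3 GW7647 and 3 DMSO values did not overlap for 23 of the 52 genes, 44.2% of them, against 31.0% of all genes tested. Of these 23, 11 were higher in GW7647 livers (15.7% of all genes tested were) and 12 were lower (15.3% of all genes tested were). Among the 23 were *slc15a1b*, higher, and *slc6a15*, *slc7a11* and *slc7a5*, lower. These passed the filter on low counts in more libraries of the group where they were higher. The counts without overlap are therefore no separate support for a change of the set. The median log2 fold change of the 52 genes was -0.04, and that of all genes tested was -0.01. Counts at an unadjusted p under 0.05 are given below without a share over all genes, so they are not read as changes. With the same thresholds DESeq2 called 8 of the 52 higher and 3 lower, with *slc15a1b*, *slc6a15* and *slc7a5* among them. Over all genes it called 621 higher and 462 lower. DESeq2 was run on all 25281 listed genes without the filter used for edgeR. Its counts thus have no share over the 15705 genes beside them and are not read against one. Only *slc38a4* and *slc6a22.1* kept their calls in each of 17 alternative fits scored with these thresholds, among them those with 1 library left out, and in a test against a fold change of 1.5 (glmTreat) *slc6a22.1* alone was called. When each library was left out in turn, the count of DEGs was 3 to 7 higher and 0 to 3 lower, with the fewest higher (3) without GW7647 replicate 3, DMSO replicate 2 or DMSO replicate 3, and 0 lower without GW7647 replicate 1 or 3. With no scaling factor between libraries the split turned to 4 higher and 11 lower, with TPM to 4 and 4, with RPKM to 3 and 3, and with the replicate number as a block it was 8 and 6. Without a scaling factor the median of all genes tested was also moved, to -0.23.

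**Figure D2:**
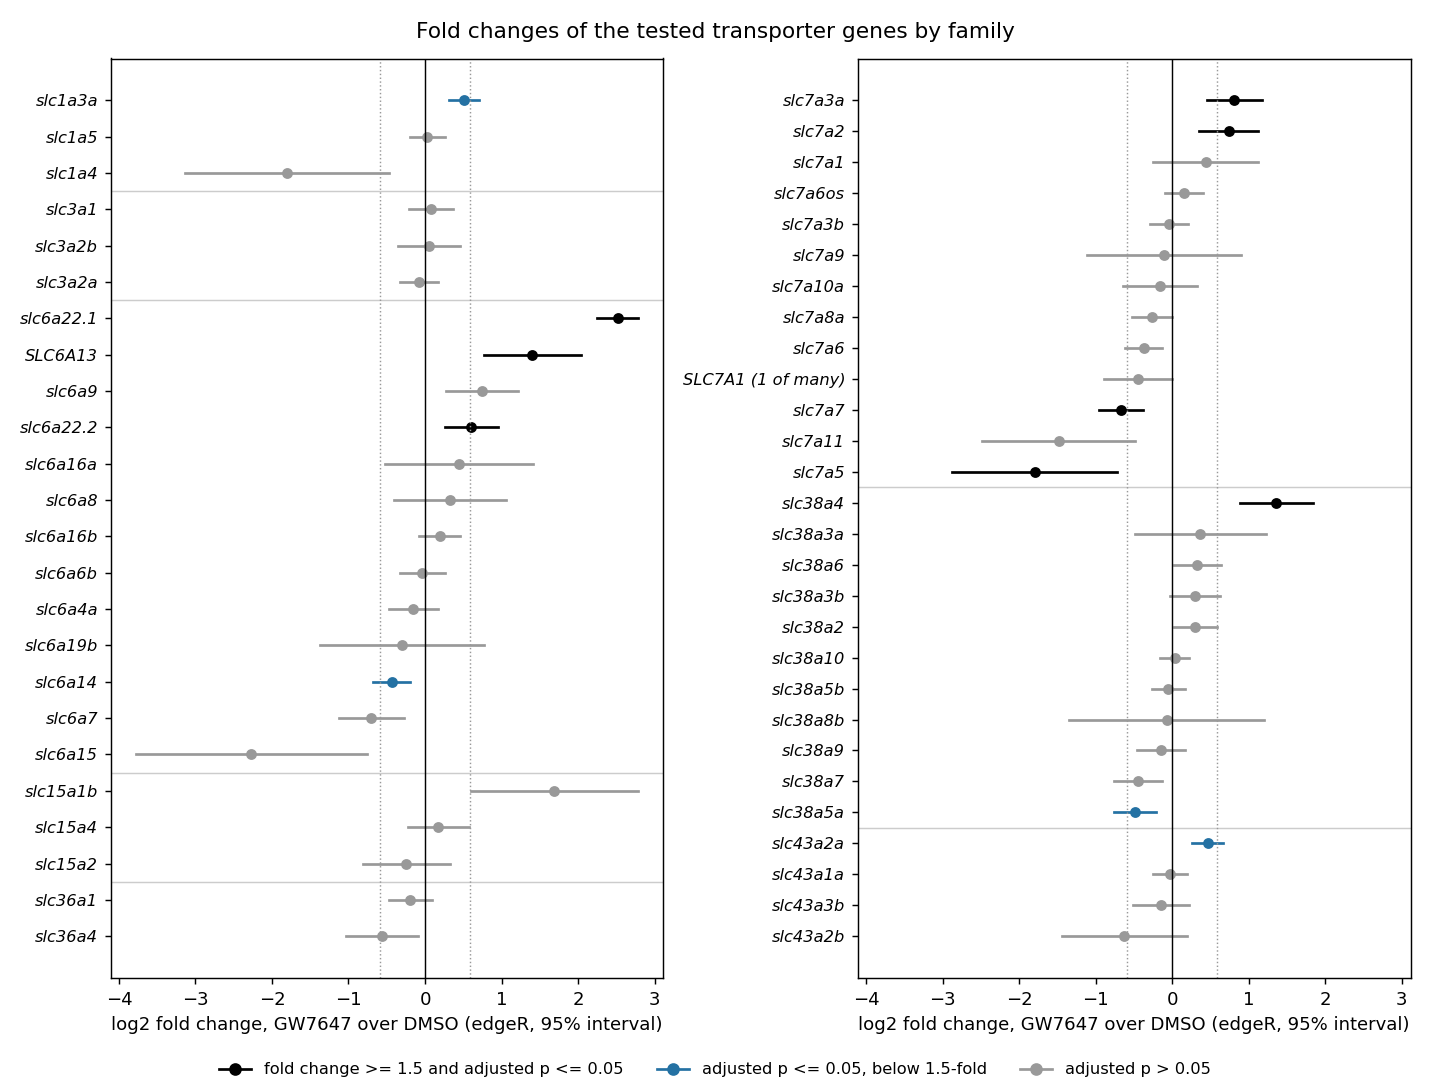
Log2 fold change of GW7647 over DMSO for the 52 tested transporter genes, grouped by family and ordered by value, with 95% intervals from edgeR. Dotted lines mark a 1.5-fold change. The 8 genes past both thresholds are in black, and intervals are widest for genes with few reads, such as *slc6a15*.

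The sodium-coupled neutral amino acid carriers of *slc38* comprised 6 tested genes, of which 1 rose and 5 were not called, where 3.39% of all genes tested were higher DEGs and 2.62% lower ones, the shares against which the counts for the other roles stand too. *slc38a4* had 1533, 2207 and 2328 CPM in GW7647 livers, against 612, 734 and 1014 CPM in DMSO livers. Every GW7647 library was above every DMSO library, and the log2 fold change was 1.36 with a standard error (SE) of 0.21 (2.57-fold, edgeR adjusted p = 0.00632). It had the largest difference in mean CPM of the 52 tested transporter genes and was the only DEG among the 11 tested *slc38a* genes. The gene lies on chromosome 4 from 1516716 to 1566572, as listed in the deposited tables, whose genome build is not given in the sources used here. *slc38a2*, listed on the same chromosome from 1600034 to 1617897 and another carrier of this kind that mammalian cells induce when amino acids are scarce, had 248, 254 and 228 CPM in GW7647 livers and 227, 199 and 166 CPM in DMSO livers, with a log2 fold change of 0.30 (adjusted p = 0.17). The glutamine carriers *slc38a3a* and *slc38a3b* had log2 fold changes of 0.37 and 0.30 (adjusted p = 0.60 and 0.23). *slc38a5a*, the copy of a system N carrier of glutamine and histidine, was lower in all GW7647 libraries, with 10.3, 12.3 and 13.5 CPM, against 17.1, 17.2 and 16.3 CPM in DMSO livers. Its log2 fold change was -0.48 (SE 0.12, adjusted p = 0.0409), which is below 1.5-fold, and that of its paralog *slc38a5b* was -0.05 (adjusted p = 0.80).

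Of the cationic amino acid carriers, which bring arginine, lysine and ornithine into the cell, 2 of 5 tested genes rose (3.39% of all genes tested did) and 3 were not called. *slc7a3a* had 576, 842 and 847 CPM in GW7647 livers, against 375, 474 and 438 CPM in DMSO livers. The groups did not overlap, and the log2 fold change was 0.81 (SE 0.16, adjusted p = 0.0168). The call was lost without GW7647 replicate 2 or 3 (adjusted p = 0.0651 and 0.0553). *slc7a2*, the carrier of this kind best known from mammalian liver, had 14.6, 10.4 and 16.4 CPM in GW7647 livers and 8.79, 8.34 and 7.69 CPM in DMSO livers. Its libraries did not overlap, and the log2 fold change was 0.74 (SE 0.17, adjusted p = 0.0314), but the adjusted p went to between 0.0523 and 0.0991 without any 1 library other than GW7647 replicate 2, and with no scaling factor the change was 0.52, under 1.5-fold. The other cationic carriers were not called. *slc7a3b*, the paralog of *slc7a3a*, had 29.4, 34.4 and 37.2 CPM in GW7647 livers and 33.5, 33.2 and 37.1 CPM in DMSO livers, and its log2 fold change of -0.04 had a 95% interval of -0.29 to 0.21. *slc7a1* had a log2 fold change of 0.44 (adjusted p = 0.41), and the gene listed as *SLC7A1 (1 of many)* one of -0.45 (adjusted p = 0.20).

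The light chains of the heteromeric exchangers had 7 tested genes, of which 2 fell (2.62% of all genes tested did) and 5 were not called, and their log2 fold changes ran from -1.79 to -0.11. Summed TPM of the light chains was 28.7 to 31.3 in GW7647 libraries and 43.9 to 51.2 in DMSO libraries. These sums carry no TMM factor, and with TPM the median log2 fold change of all genes tested was -0.15. The grouping by role was made after the values were seen, so the gap is no separate support for a fall. *slc7a7*, which exports cationic amino acids in exchange for neutral ones in mammals, had 13.8, 15.0 and 13.8 CPM in GW7647 livers, against 19.6, 26.5 and 21.5 CPM in DMSO livers. All GW7647 libraries were below all DMSO libraries, and the log2 fold change was -0.67 (SE 0.13, adjusted p = 0.0157). The adjusted p was 0.0506 without GW7647 replicate 1 and 0.0561 without GW7647 replicate 3, and without DMSO replicate 2 the change was under 1.5-fold, at -0.53. *slc7a5*, which exchanges large neutral amino acids and is common in growing cells, was at a low level, with 0.43, 0.77 and 0.42 CPM in GW7647 livers, and 3.22, 1.41 and 1.09 CPM in DMSO livers. These values rest on 8, 16 and 10 reads in GW7647 libraries and 70, 33 and 25 reads in DMSO libraries, so that the gene passed the filter on low counts in all DMSO libraries but in 1 GW7647 library. It was thus tested largely through the group where it was higher, so its call is no separate support for a fall. The groups did not overlap, but the log2 fold change of -1.79 (SE 0.48, adjusted p = 0.0498) was just inside the threshold. The call was lost without any 1 library other than DMSO replicate 3 (adjusted p = 0.0793 to 0.143). Without DMSO replicate 1 the log2 fold change was -1.19. The adjusted p was also 0.0507 with DESeq2 size factors and 0.0572 with all reads on the gene. *slc7a11*, which imports cystine for glutathione synthesis, had 0.71, 0.53 and 0.30 CPM in GW7647 livers, and 1.43, 2.01 and 0.79 CPM in DMSO livers, without overlap (log2 fold change -1.48, SE 0.44, adjusted p = 0.0723, and 0.0174 with the replicate number as a block). With all reads on the gene its log2 fold change was -0.32 (adjusted p = 0.607), and its intron reads, 44, 33 and 72 in GW7647 libraries and 20, 79 and 49 in DMSO libraries, outnumbered its exon reads of 13, 11 and 7 and of 31, 47 and 18 in 5 of the 6 libraries and overlapped between the groups. *slc7a6*, which resembles *slc7a7* in its exchange, had a log2 fold change of -0.37 (adjusted p = 0.0647), and *slc7a8a*, which exchanges neutral amino acids, one of -0.26 (adjusted p = 0.20).

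The heavy chains that carry these light chains to the membrane had no called gene. The 3 log2 fold changes, of *slc3a1*, *slc3a2b* and *slc3a2a*, were 0.08, 0.05 and -0.08, with edgeR adjusted p of 0.74, 0.90 and 0.72, and neither an unadjusted p under 0.05 (0 of 3) nor DESeq2 (0 of 3) called any. The signs of *slc3a1* and *slc3a2b* turned to negative with no scaling factor and with TPM. The *slc3a2* copies had overlapping TPM in both groups. *slc3a2b* had 76.4, 72.7 and 50.1 CPM in GW7647 livers, and 51.3, 71.7 and 69.4 CPM in DMSO livers. The ranges overlapped, and the 95% interval of the log2 fold change was -0.36 to 0.45. *slc3a2a* had 53.2, 64.9 and 50.8 CPM in GW7647 livers, and 58.0, 61.9 and 58.3 CPM in DMSO livers, and *slc3a1*, the partner of *slc7a9*, had 27.4, 20.7 and 26.7 CPM in GW7647 livers and 24.3, 21.8 and 24.6 CPM in DMSO livers.

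Both copies of *slc6a22* rose. They are neighbours on chromosome 6, *slc6a22.1* from 41118910 to 41138855 on the minus strand and *slc6a22.2* from 41144155 to 41161017 on the plus strand. The identifier table used for names lists *slc6a13*, the name of a carrier of GABA and taurine, as another name of *slc6a22.1*, and what the *slc6a22* proteins carry in zebrafish is not stated here. *slc6a22.1* had 127, 115 and 116 CPM in GW7647 livers, against 17.7, 21.4 and 23.2 CPM in DMSO livers. This was the largest fold change among the DEGs of the set, 2.52 on the log2 scale with an SE of 0.12 (5.73-fold, adjusted p = 1.29e-05), and the lowest GW7647 library was far above the highest DMSO library. *slc6a22.2* had 87.7, 61.7 and 77.0 CPM in GW7647 livers, and 57.9, 42.6 and 48.2 CPM in DMSO livers. Its groups were close to each other but did not overlap, and its log2 fold change of 0.61 (1.52-fold, SE 0.15, adjusted p = 0.0418) was just inside the fold threshold. It became 0.38 with no scaling factor and 0.55 with upper-quartile factors, both under 1.5-fold. The adjusted p was 0.0534 with all reads on the gene, and 0.105 to 0.124 without GW7647 replicate 1 or 3 or DMSO replicate 2 or 3. By TPM, *slc6a22.1* reached 70.7 ± 2.6 in GW7647 livers and 14.1 ± 2.0 in DMSO livers, while *slc6a22.2* had 51.1 ± 8.2 and 38.5 ± 7.9 TPM in GW7647 and DMSO livers, so the copy with the lower level in DMSO livers had the higher one in GW7647 livers. The TPM values of *slc6a22.2* overlapped between the groups, at 42.2 to 58.2 in GW7647 livers and 30.6 to 46.3 in DMSO livers.

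Among the *slc6* carriers of transmitters, glycine, taurine and creatine, 5 genes were tested and 1 rose (3.39% of all genes tested did). A further one, *slc6a9*, was called higher by DESeq2 and with the block (4.26% of all genes tested were with the block). *SLC6A13*, on chromosome 25, was at a low level, with 4.51, 3.97 and 3.18 CPM in GW7647 livers (83, 82 and 75 reads), and 2.07, 1.33 and 1.01 CPM in DMSO livers (45, 31 and 23 reads). In mammals this carrier takes up GABA and taurine at the hepatocyte surface. All GW7647 libraries were above all DMSO libraries, with a log2 fold change of 1.40 (SE 0.28, adjusted p = 0.0184). The adjusted p was 0.0512 to 0.0682 without GW7647 replicate 1 or 2 or DMSO replicate 2 or 3. *slc6a9*, a glycine carrier and by TPM one of the better expressed *slc6a* genes, had 509, 329 and 335 CPM in GW7647 livers, and 293, 186 and 223 CPM in DMSO livers. Its groups did not overlap, and the log2 fold change was 0.74 (SE 0.21, edgeR adjusted p = 0.0594). DESeq2 gave 0.75 (adjusted p = 0.0035), while edgeR without GW7647 replicate 1 gave 0.51 (adjusted p = 0.151). The gene overlaps *ccdc24* on the opposite strand, and 96.3% of its exon reads mapped to 1 place only. Whether the authors counted by strand is not given in the sources used here, so reads of overlapping genes cannot be told apart. The taurine carrier *slc6a6b*, the creatine carrier *slc6a8* and the serotonin carrier *slc6a4a* had log2 fold changes of -0.04, 0.32 and -0.15 (adjusted p = 0.90, 0.58 and 0.55).

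The amino acid carriers of *slc6* had 4 tested genes, of which none was called by edgeR and 3 had an unadjusted p under 0.05. DESeq2 called 1 (*slc6a15*) lower, and edgeR with the block called 2 (*slc6a15* and *slc6a7*) lower (4.45% of all genes tested were). The log2 fold changes of the 4 genes ran from -2.27 to -0.30. *slc6a14*, a carrier of neutral and cationic amino acids, had 34.7, 44.7 and 37.3 CPM in GW7647 livers, against 51.8, 52.5 and 53.7 CPM in DMSO livers, without overlap. Its log2 fold change of -0.44 (SE 0.11) passed the adjusted p (0.0393) but not the 1.5-fold threshold. *slc6a7*, a proline carrier best known from brain, had 2.01, 2.91 and 2.67 CPM in GW7647 livers, and 4.19, 4.11 and 4.11 CPM in DMSO livers. It lay just outside the threshold, with a log2 fold change of -0.70 (SE 0.19, adjusted p = 0.0511, and 0.0308 with the block). *slc6a15*, a carrier of branched-chain amino acids and proline, had 0.27, 0.29 and 0.42 CPM in GW7647 livers and 3.31, 0.60 and 1.01 CPM in DMSO livers, with 5, 6 and 10 reads and 72, 14 and 23 reads behind these values. It was below the filter on low counts in all GW7647 libraries and was thus tested only through the group where it was higher. Calls of a fall of *slc6a15* are therefore no separate support for one. Its log2 fold change of -2.27 (SE 0.67, adjusted p = 0.0692) became -1.25 without DMSO replicate 1.

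In the *slc1* family, 3 genes were tested and none was called by edgeR or by DESeq2, while 2 had an unadjusted p under 0.05. *slc1a3a*, a carrier of glutamate and aspartate and the only one of the 10 such genes that was tested, had 79.5, 75.7 and 71.4 CPM in GW7647 livers, against 51.2, 53.3 and 54.3 CPM in DMSO livers. The 2 groups were well apart, with a log2 fold change of 0.51 (SE 0.09, adjusted p = 0.00918), which is 1.43-fold and just outside the fold threshold. The neutral amino acid exchanger *slc1a5*, which takes up glutamine in many cells, had 80.7, 100 and 93.5 CPM in GW7647 livers and 90.6, 87.7 and 90.2 CPM in DMSO livers (log2 fold change 0.03, 95% interval -0.20 to 0.26). *slc1a4*, an exchanger of alanine, serine and cysteine, had 0.87, 3.44 and 2.38 CPM in GW7647 livers, and 15.3, 4.19 and 4.20 CPM in DMSO livers. The log2 fold change of -1.81 (SE 0.59, adjusted p = 0.0956) rested much on DMSO replicate 1, without which it was -0.89.

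Of the peptide carriers, *slc15a1b*, the intestinal uptake carrier of dipeptides and tripeptides, had 0.65, 1.69 and 1.23 CPM in GW7647 livers (12, 35 and 29 reads), and 0.37, 0.17 and 0.57 CPM in DMSO livers (8, 4 and 13 reads). The GW7647 libraries were all above the DMSO libraries, with a log2 fold change of 1.69 (SE 0.48, adjusted p = 0.0630). *slc15a1b* passed the filter on low counts in all GW7647 libraries but in 1 DMSO library. It was thus tested largely through the group where it was higher, so calls of a rise are no separate support for one. *slc15a2*, the related carrier of kidney and brain, had 4.35, 4.26 and 5.01 CPM in GW7647 livers, and 6.21, 3.34 and 6.60 CPM in DMSO livers, with overlap (log2 fold change -0.24, adjusted p = 0.60). The edgeR test called neither of these, and 1 of the 2 (*slc15a1b*) had an unadjusted p under 0.05. DESeq2 and edgeR with the block called *slc15a1b* higher (4.26% of all genes tested were with the block).

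The 5 lysosomal carriers tested, *slc15a4*, *slc36a1*, *slc36a4*, *slc38a7* and *slc38a9*, had no DEG by edgeR or DESeq2, and 2 had an unadjusted p under 0.05. *slc38a9*, which in mammals senses lysosomal arginine for mTORC1, had 10.5, 7.99 and 9.12 CPM in GW7647 livers and 9.53, 10.8 and 10.1 CPM in DMSO livers (log2 fold change -0.14, adjusted p = 0.57). *slc36a4*, a carrier of proline and tryptophan, had 6.25, 9.97 and 11.1 CPM in GW7647 livers, against 12.4, 15.8 and 12.4 CPM in DMSO livers. These did not overlap, with a log2 fold change of -0.57 (SE 0.21, adjusted p = 0.13). *slc38a7*, which exports glutamine from lysosomes and overlaps another listed gene on the same strand, had a log2 fold change of -0.45 (adjusted p = 0.0779), *slc36a1*, a proton-coupled carrier of small amino acids, one of -0.19 (adjusted p = 0.37), and *slc15a4*, a carrier of histidine and peptides, one of 0.17 (adjusted p = 0.59). The value of *slc15a4* was slightly below 0 with no scaling factor.

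The *slc43* family held some of the highest levels but no DEG by edgeR or DESeq2 among 4 tested genes, of which 1 had an unadjusted p under 0.05. With the block edgeR called 1, *slc43a2b*, lower (4.45% of all genes tested were). *slc43a3b* had 1069, 857 and 1124 CPM in GW7647 livers, and 985, 982 and 1402 CPM in DMSO livers, with overlap (log2 fold change -0.14, 95% interval -0.51 to 0.22). *slc43a2a* and *slc43a2b* are copies of a facilitative carrier of leucine, phenylalanine and other large neutral amino acids, and their fitted log2 fold changes had opposite signs. *slc43a2a* had 40.5, 42.6 and 40.3 CPM in GW7647 livers, against 30.0, 27.9 and 31.5 CPM in DMSO livers, and passed the adjusted p below 1.5-fold (log2 fold change 0.47, SE 0.09, adjusted p = 0.0154). *slc43a2b*, which was expressed at a higher level, had 828, 390 and 468 CPM in GW7647 livers, and 1253, 468 and 875 CPM in DMSO livers. These ranges overlapped, and the log2 fold change of -0.62 had an SE of 0.36 (adjusted p = 0.32). With the block the value was -0.59 (adjusted p = 0.00891). The unblocked value depended on single libraries, being -1.01 when GW7647 replicate 1 was left out, -0.41 when GW7647 replicate 2 was and -0.25 when DMSO replicate 1 was. *slc43a1a* had a log2 fold change of -0.03, but only 54.9% of its exon reads mapped to 1 place and it overlaps *ssrp1a* on the opposite strand, so its level is uncertain.

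The tested genes not yet described were not called either. Of these, *slc7a9*, the light chain that pairs with *slc3a1*, *slc7a10a*, a light chain for small neutral amino acids, and *slc6a19b*, a carrier of neutral amino acids of kidney and intestine, had log2 fold changes of -0.11, -0.16 and -0.30 (adjusted p = 0.91, 0.71 and 0.75). *slc6a16a* and *slc6a16b*, whose substrates are not stated here, had 0.44 and 0.19 (adjusted p = 0.57 and 0.35). *slc38a6*, *slc38a8b* and *slc38a10* had 0.33, -0.07 and 0.03 (adjusted p = 0.17, 0.95 and 0.85), and *slc7a6os* had 0.15 (adjusted p = 0.44). *slc38a8b*, at 2 to 13 reads a library, was the tested gene with the fewest reads and overlaps *exosc6* on the opposite strand.

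**Figure D3:**
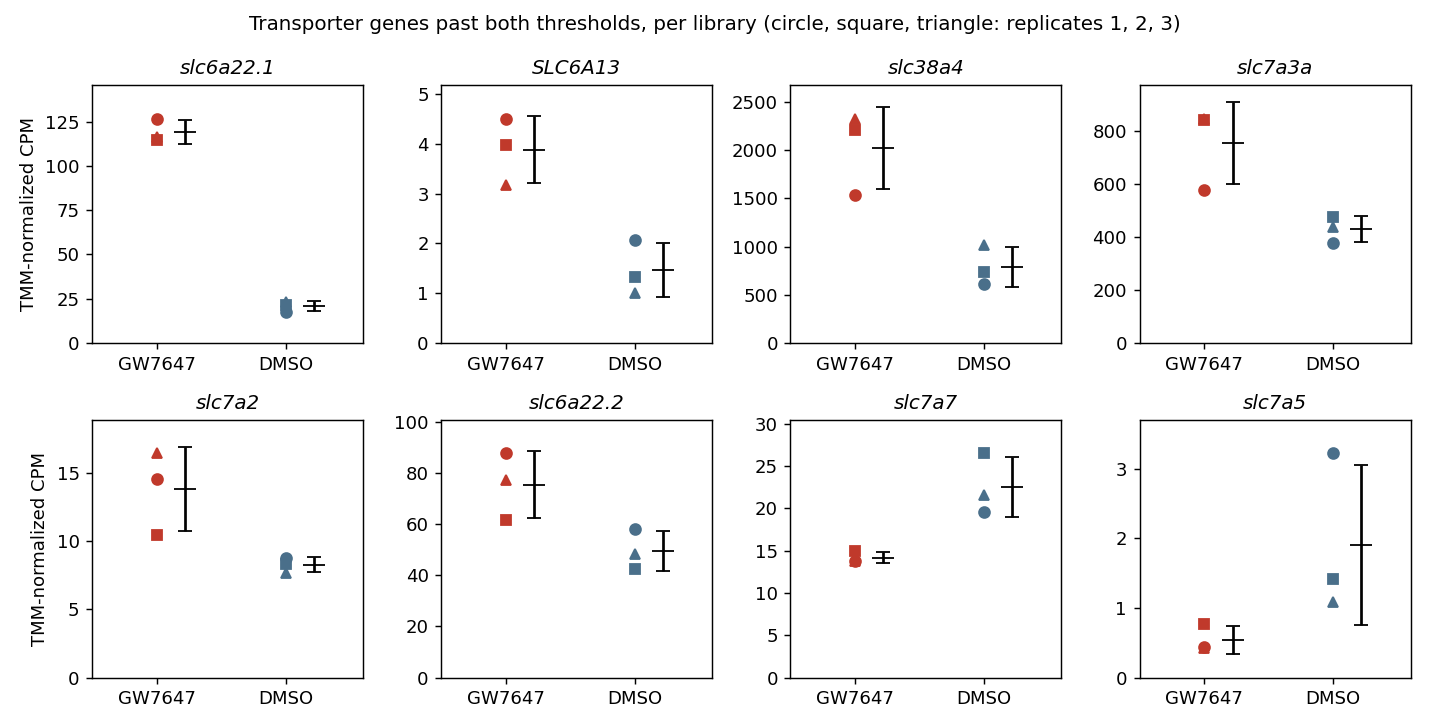
CPM of the 8 transporter DEGs in each library, with each y axis starting at 0. Circles, squares and triangles are replicates 1, 2 and 3, and bars show the group mean and SD. In every panel the GW7647 points (left) and the DMSO points (right) do not overlap, and DMSO replicate 1 stands apart for *slc7a5*.

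When the replicate number was added to the fit as a block, 14 of the 52 genes were DEGs, 8 higher and 6 lower, against 8.71% of all genes tested in both directions, 4.26% higher and 4.45% lower. The 8 DEGs of the fit without the block stayed called, and 6 genes were added. *slc6a9* had a blocked log2 fold change of 0.73 (adjusted p = 0.00056), and its ratios in the 3 same-numbered comparisons were 0.80, 0.82 and 0.59 on the log2 scale. *slc43a2b* had one of -0.59 (adjusted p = 0.00891), with same-numbered ratios of -0.60, -0.27 and -0.90, since both replicate 1 libraries were high. *slc15a1b* had one of 1.66 (adjusted p = 0.0407), *slc6a7* one of -0.71 (adjusted p = 0.0308), *slc7a11*, on exon reads, one of -1.45 (adjusted p = 0.0174) and *slc6a15* one of -2.05 (adjusted p = 0.0212). *slc36a4* passed the adjusted p with the block (0.0308) at a log2 fold change of -0.58, just below 1.5-fold. With the block the *slc6a* genes accounted for 4 of the 8 that were higher and the light chains for 3 of the 6 that were lower. Of those light chains, *slc7a5* and *slc7a11* passed the filter on low counts in 3 DMSO libraries but in 1 and 2 GW7647 libraries. *slc6a15* passed it in 3 DMSO and 0 GW7647 libraries, and *slc15a1b* in 3 GW7647 libraries and 1 DMSO library. These genes passed it in more libraries of the group where they were higher, so the tally is not read as a family pattern.

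**Figure D4:**
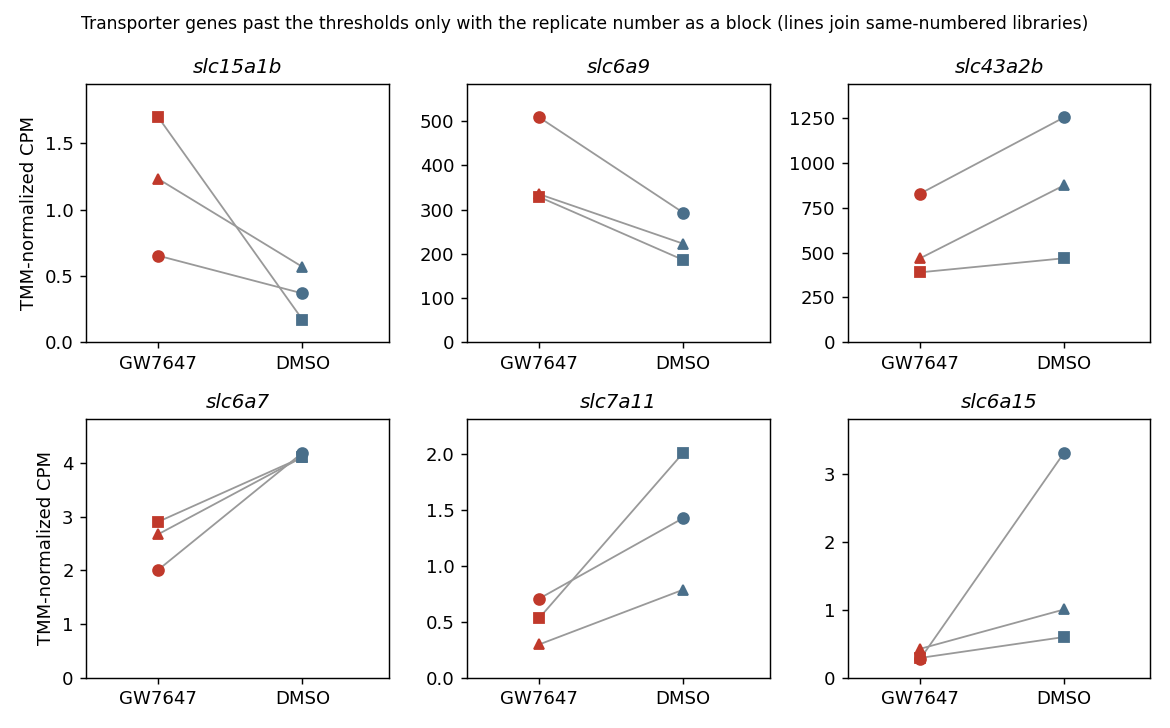
CPM of the 6 transporter genes that were not DEGs in the main edgeR fit but were when the replicate number was added as a block. DESeq2, without a block, also called *slc6a9*, *slc15a1b* and *slc6a15*. Lines join the GW7647 library (left) and the DMSO library (right) with the same number. In each panel the 3 lines run in the same direction, and for *slc43a2b* replicate 1 is the highest in both groups.

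Genes that work with the carriers were read from lists of the same biology. Among 9 tested partner and trafficking genes, 1 rose (3.39% of all genes tested did) and 0 fell (2.62% did), with a median log2 fold change of -0.23. At an unadjusted p under 0.05, 2 of the 9 were lower. DESeq2 called 0 lower, and edgeR with the block called 2 lower (4.45% of all genes tested were). The log2 fold changes of the 9 genes ran from -1.43 to 0.68. The one that rose was *slc16a10*, a facilitative carrier of aromatic amino acids that in mammals works beside light chain exchangers. It had 309, 292 and 326 CPM in GW7647 livers, against 198, 172 and 208 CPM in DMSO livers, without overlap (log2 fold change 0.68, SE 0.10, adjusted p = 0.00604). With no scaling factor its change was under 1.5-fold, at 0.46. Of 23 tested genes of the amino acid response, in which the transcription factor Atf4 induces carriers and synthesis enzymes when amino acids are short, 1 rose and 1 fell, or 4.35% each way, near the 3.39% and 2.62% of all genes tested, with a median of 0.03. *chac1*, which encodes an enzyme that breaks down glutathione, had 976 ± 40.0 CPM in GW7647 livers and 493 ± 88.9 CPM in DMSO livers (log2 fold change 0.99, SE 0.13, adjusted p = 0.0034). *atf3*, a stress-induced transcription factor, had 75.6 ± 11.5 CPM in GW7647 livers and 134 ± 24.3 CPM in DMSO livers (log2 fold change -0.83, SE 0.16, adjusted p = 0.0148), a call lost without GW7647 replicate 2 (adjusted p = 0.0543). The other 21 were not called, among them *asns*, which makes asparagine, at a log2 fold change of 0.25 (adjusted p = 0.23), *atf4a* at 0.01 and *atf4b* at -0.12.

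Of 28 tested genes of amino acid sensing and mTORC1, edgeR called 0 and DESeq2 called 0. At an unadjusted p under 0.05 there were 6 genes, 3 higher and 3 lower, a count without a share over all genes beside it. With the block 1, *sesn1*, was called lower (log2 fold change -0.60, adjusted p = 0.03), where 4.45% of all genes tested were. The median log2 fold change of the 28 genes was -0.03. The largest value was that of *sesn3*, an inhibitor of mTORC1 signalling (log2 fold change 0.52, adjusted p = 0.0548), and the smallest that of *tfeb*, a transcription factor for lysosomal genes (-0.76, adjusted p = 0.27).

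Enzymes that use the transported substrates gave more calls. Of 37 tested, 6 rose (3.39% of all genes tested did) and 0 fell (2.62% did). Whatever their fold change, 19 passed the adjusted p (9.06% of all genes tested did). The median log2 fold change was 0.38, against -0.01 over all genes tested. With the block 10 rose (4.26% of all genes tested did). DESeq2 called 9 of them higher, and 621 over all 25281 listed genes, which is not a like set of genes to compare with. At an unadjusted p under 0.05, 4 genes were lower. The 6 were *bcat1*, which transaminates branched-chain amino acids (log2 fold change 0.84, adjusted p = 0.00628), *gamt*, the last enzyme of creatine synthesis (0.76, adjusted p = 0.046), *dmgdh* and *sardh*, which act in turn on dimethylglycine and sarcosine to give glycine (0.72 and 0.60, adjusted p = 0.00382 and 0.0136), *shmt1*, which interconverts serine and glycine (0.72, adjusted p = 0.00805), and *amt*, of the glycine cleavage system (0.61, adjusted p = 0.0408). With no scaling factor, RPKM or TPM, *bcat1* was the only one of the 6 to stay called, and the others were under 1.5-fold. With 1 library left out, *bcat1*, *dmgdh* and *shmt1* stayed called each time. *gamt* lost its call without GW7647 replicate 1 or 3 or DMSO replicate 2 or 3 (adjusted p = 0.0917 to 0.134), *amt* without GW7647 replicate 1 or 3 or DMSO replicate 1 or 2 (adjusted p = 0.0729 to 0.116), and *sardh* was under 1.5-fold without GW7647 replicate 1 or DMSO replicate 2. *shmt1* had 1562 ± 225 CPM in GW7647 livers and 950 ± 37.1 CPM in DMSO livers, and *dmgdh* had 149 ± 10.5 CPM in GW7647 livers and 90.5 ± 7.0 CPM in DMSO livers. *gatm*, which makes the precursor that *gamt* uses, had 234 CPM in GW7647 livers and 147 CPM in DMSO livers on average, with overlap (log2 fold change 0.67, adjusted p = 0.24, and 0.00316 with the block).

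Fewer cells of a type and less RNA per cell cannot be told apart in these bulk samples, and markers of several cell types moved with the groups. The TPM sums below carry no TMM factor. With TPM the median log2 fold change of all genes tested was -0.15, against -0.01 with TMM. Small gaps in the sums are therefore not read as changes. Summed TPM of 12 hepatocyte markers was 48680 to 57766 in GW7647 livers and 38544 to 41403 in DMSO livers, with 7 of 12 DEGs that rose (3.39% of all genes tested did) and 0 that fell (2.62% did). *fabp10a*, the hepatocyte gene whose promoter drives the transgene, went against this sum, with 7023 ± 354 TPM in GW7647 livers and 10273 ± 1028 TPM in DMSO livers. It was lower in every GW7647 library and passed the adjusted p below 1.5-fold (log2 fold change -0.36, adjusted p = 0.0496). Summed TPM of 8 biliary and progenitor markers was 10817 to 10943 in GW7647 livers and 14463 to 14694 in DMSO livers, with 2 of 8 DEGs that fell (2.62% of all genes tested did) and 0 that rose (3.39% did). The counts for the lists below stand against the same shares. With the block, 4.26% of all genes tested were higher and 4.45% lower. Liver markers were high in every library. Macrophage markers (1 of 5 tested fell) summed to 70.4 to 74.5 TPM in GW7647 livers and 92.1 to 100 TPM in DMSO livers. Enterocyte markers (0 of 5 tested called by edgeR, but 2, *fabp2* and *chia.2*, called higher with the block, 1 by DESeq2, and 2 higher at an unadjusted p under 0.05) summed to 116 to 152 TPM in GW7647 livers and 35 to 91.6 TPM in DMSO livers, most of it from *fabp2*. Kidney tubule markers (0 of 5 tested called by edgeR, 1, *cdh17*, called lower with the block, 1 lower by DESeq2, and 1 lower and 1 higher at an unadjusted p under 0.05) summed to 77.0 to 114 TPM in GW7647 livers and 134 to 180 TPM in DMSO livers, with *slc12a3* at 0 reads. Neuron markers (1 of 5 tested fell) summed to 3.90 to 11.7 TPM in GW7647 livers and 18.7 to 25.0 TPM in DMSO livers, with *elavl3* and *sncb* at 0 reads. Red blood cell markers summed to 7.10 to 8.43 TPM in GW7647 livers and 8.52 to 10.3 TPM in DMSO livers, with *hbba2* at 0 reads. With TMM the 2 tested ones had 1 log2 fold change above 0 and 1 below, with a median of -0.04, and none was called. Exocrine pancreas markers were at 18.5 to 38 TPM in GW7647 livers and 17.3 to 170 TPM in DMSO livers, and muscle markers at 2.45 to 8.85 TPM in GW7647 livers and 3.79 to 30.7 TPM in DMSO livers, both highest in DMSO replicate 2. Endocrine pancreas markers were at 0.378 to 0.617 TPM in GW7647 livers and 0.584 to 14.6 TPM in DMSO livers, with the highest value in DMSO replicate 1, where *gcga*, the gene of glucagon, had 17.4 CPM. That library was also the highest for *slc7a5*, *slc6a15* and *slc1a4*. The part of any of these cell types in the values of the transporter genes was not tested.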

How the data were processed

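Livers of GW7647- and DMSO-treated larvae were sequenced as 3 pooled libraries each (stranded, poly(A)-selected, paired-end). Mapping and counting per gene were done by the authors in CLC Genomics Workbench. The deposited counts are whole numbers of exon reads without normalization, and the deposited TPM and RPKM values are scaled by exon length and library total by the authors' software. The software version, genome build, strand setting and treatment of reads that map to several places are not given in the sources used here. Positions are those of the deposited tables, counted from 1.

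Total exon reads of the 15705 genes kept by filterByExpr at a minimum count of 10 were scaled with TMM and fitted in edgeR 4.0.16 (R 4.3.3) by quasi-likelihood, without a covariate. Standard errors came from the F statistic. The thresholds for DEGs follow the authors' (fold change of 1.5, adjusted p of 0.05). A permutation test of 3 against 3 libraries cannot give a p under 0.1, so none was used, and p-values measure the spread between these pooled libraries. The scripts were tested on simulated data. Intervals of 95% come from the t distribution, and the limit of 3 reads covers counting error only.

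Alternatives were DESeq2 1.42.0, upper-quartile factors, DESeq2 size factors, no scaling factor, 2 other filters, a block for the replicate number, leaving out single libraries, uniquely mapped exon reads, all gene reads, limma 3.58.1 on log2(RPKM + 1) and log2(TPM + 1), no fold threshold and glmTreat. Deviations from the group means correlated at 0.161 to 0.324 for the 3 pairs of libraries with the same number and at -0.239 to 0.0754 for the other 6, so the numbers were read as pairing the libraries from this check alone. The check used the same counts as the fits, and neither the labels nor the authors state a pairing. Within a group the deviations cancel, so higher correlations for some pairs bring lower ones for others. The contrast is thus partly fixed in advance and is weak support for a pairing. The fit without the block therefore stayed the main one, and calls made only with the block depend on that reading. The members and lists were chosen with earlier results of these data known, and the grouping by role was made after the values were seen. Of 189 list entries, 6 were named through a table of 29201 identifiers and 6 were not found. A single list gene is counted but not reported here by name. Genes were named by a rule: every DEG, every member past the adjusted p only or changed in call by the block, in each family the highest TPM and the largest and smallest fold change, those next to a threshold, opposite paralogs of a DEG, and in each pathway list the DEGs or, with none, the largest and smallest change. Other named genes were chosen after their values were seen. Plots used Python 3.11.15 and matplotlib 3.10.9.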

Additional observations from a re-analysis of the deposited data

Results flagged for a closer look

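Intron reads entered none of the comparisons by themselves. Of 28 named transporter genes, 3 had a higher intron CPM in every GW7647 library than in every DMSO library, which marked them for a closer look, without a test, and 3 had a lower one. Over the 15379 tested genes with intron reads the shares were 5.56% higher and 6.06% lower. The 28 genes were named from their exon values in these data, so the counts and these shares are not a like comparison. Intron CPM overlapped between the groups for the DEGs *slc38a4*, *slc7a3a*, *slc6a22.2*, *slc7a7*, *SLC6A13* and *slc7a5*. *slc38a4* had 377, 219 and 398 intron reads in GW7647 livers and 105, 252 and 413 in DMSO livers. *slc6a22.1* had 164, 106 and 204 intron reads in GW7647 livers, or 7.57 ± 2.11 CPM, against 30, 26 and 54 intron reads in DMSO livers, or 1.62 ± 0.66 CPM. *slc43a2a* had 50, 55 and 58 intron reads in GW7647 livers, or 2.61 ± 0.14 CPM, and 46, 36 and 51 in DMSO livers, or 1.96 ± 0.37 CPM. Its groups overlapped in reads and were apart only in CPM, so the gap depends on the scaling of the libraries. *slc7a2* had 32, 19 and 48 intron reads in GW7647 livers, or 1.57 ± 0.58 CPM, and 11, 18 and 18 in DMSO livers, or 0.69 ± 0.16 CPM. The 3 with lower values were *slc6a14*, at 2.67 ± 0.85 CPM in GW7647 livers and 4.26 ± 0.83 CPM in DMSO livers, *slc3a2a*, at 0.48 ± 0.04 CPM in GW7647 livers and 1.00 ± 0.30 CPM in DMSO livers, and *slc15a2*, at 1, 1 and 0 intron reads in GW7647 livers and 4, 2 and 2 in DMSO livers.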

How the results depend on the processing

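Of 28 named transporter genes, *slc6a22.1* and *slc38a4* kept their calls in 17 fits (all alternatives but glmTreat and the one without a fold threshold), and the other 6 DEGs lost theirs in at least 3 of them. The 6 transporter DEGs that were higher became 3 with RPKM and 1 with glmTreat, and the 2 that were lower became 1 with DESeq2 size factors or all gene reads, 11 with no scaling factor, 6 with the replicate block, 4 with TPM or with no fold threshold, and 0 with glmTreat. Leaving out 1 library gave 3 to 7 higher and 0 to 3 lower. Over all genes tested, the 533 higher became 321 with no scaling factor, 260 with RPKM, 297 with TPM, 864 with no fold threshold and 139 with glmTreat, and the 412 lower became 1511 with no scaling factor, 699 with the replicate block, 778 with TPM and 29 with glmTreat. Leaving out 1 library gave 401 to 530 higher and 189 to 340 lower over all genes. The median log2 fold change of the transporter genes, -0.04, was -0.088 with DESeq2 (which also fits genes with few reads), -0.091 with upper-quartile factors, -0.26 with no scaling factor, -0.17 with RPKM, -0.16 with TPM and -0.066 to 0.046 with 1 library left out. That of all genes was -0.067 with upper-quartile factors, -0.23 with no scaling factor, -0.14 with RPKM and -0.15 with TPM, so the shifts in these settings were largely shared by all genes. It was -0.0029 with DESeq2 and -0.014 to -0.0046 with 1 library left out, so the transporter shifts in those settings were not shared. Signs turned for *slc15a4* (-0.050 with no scaling factor, -0.023 with RPKM, -0.0092 with TPM), *slc3a2b* (-0.0063 with upper-quartile factors, -0.17 with no scaling factor, -0.16 with RPKM, -0.14 with TPM, and -0.061, -0.018 and -0.086 without GW7647 replicate 1, GW7647 replicate 2 and DMSO replicate 1, in a range of -0.086 to 0.22), *slc3a1* (-0.14 with no scaling factor, -0.12 with RPKM, -0.11 with TPM), *slc43a3b* (0.051 without DMSO replicate 3) and *slc7a3b* (0.052 without GW7647 replicate 1, 0.018 without DMSO replicate 3), none of which was called. Among the 52 tested transporter genes the block changed no call other than the 6 additions. The causes were not tested. Depth limits the low genes: *slc7a5*, *slc6a15*, *slc7a11* and *slc15a1b* rest on 4 to 72 reads a library.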
